A study of Mus musculus with 6 samples.

Results

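The genes described are 10 leukocyte integrin subunits, *Itga4*, *Itga6*, *Itgae*, *Itgal*, *Itgav*, *Itgb1*, *Itgb2*, *Itgb3*, *Itgb7* and *Itgb8*, taken by symbol from the RNA-Seq counts of 24223 mouse genes. All 10 were among the 13607 genes with enough counts to be tested. The 6 libraries were 2 each of Naive, Th17 and Th1 cells, which the study calls independent biological replicates. The labels do not name separate animals or cultures, so that p-values measure the spread between these libraries. Naive cells were CD4+CD44- T cells taken with a kit for CD4+CD62L+ cells from the lymph nodes and spleens, pooled, of C57BL/6 mice 1 to 2 months of age, with no transgene and no culture. Th17 and Th1 cells were grown from such cells on CD3 and CD28 stimulation and collected on day 5. The methods name either antibodies or beads for this stimulation and do not say which was used. By the study's staining, only a part of the Th17 cells held IL-17A and only a part of the Th1 cells held IFN-γ. Th17 medium held antibodies to IL-4 and IFN-γ together with TGF-β, IL-6, IL-1β and IL-23, and Th1 medium held an antibody to IL-4 together with IL-12 and IL-2. Against Naive cells, stimulation in culture and polarization cannot be told apart, and only the comparison of Th1 with Th17 is between 2 cultured groups.

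Integrins are adhesion receptors made of an α and a β chain, and a chain can pair with more than 1 partner. On T cells, the α4 chain pairs with β1 to bind VCAM-1 and fibronectin and with β7 to bind MAdCAM-1 in the gut, the αE chain pairs with β7 to bind E-cadherin on epithelium, and the αL chain pairs with β2 to form LFA-1, which binds ICAMs and holds the T cell to the antigen-presenting cell. The αv chain pairs with β3 to bind vitronectin and osteopontin and with β8 to release active TGF-β from its latent form, and α6 with β1 is a receptor for laminins. RNA levels of the chains do not give the amount of any pair at the cell surface.

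Total counts ranged from 17742158 to 69080017 per library, and in each group replicate 1 was between 3.38 and 3.77 times as deep as replicate 2. The 6 T cell markers were each above 10 CPM, a gene's reads scaled to a common library size, in every library. Summed Th17 markers were 1412 and 1877 CPM in Th17 libraries and at most 10.5 CPM elsewhere, and summed Th1 markers were 775 and 763 CPM in Th1 libraries and at most 93.8 CPM elsewhere. Summed markers of naive cells did not separate the groups, at 2699 and 4235 CPM in Naive, 2822 and 2423 CPM in Th17 and 2032 and 4289 CPM in Th1 libraries. Of 15 neutrophil markers, 14 and 13 were above 10 CPM in the Th17 libraries, with sums of 3224 and 3053 CPM. The sums were 422 and 245 CPM in Naive libraries and 42.3 and 63.8 CPM in Th1 libraries. These markers did not all move one way. Under the thresholds given below, 11 were called higher and 1 lower in Th17 compared with Naive cells. In Th1 compared with Naive cells 5 were called higher and 5 lower. *Mpo* was highest in Naive libraries, at 251 and 159 CPM against 68.1 and 58.7 CPM in Th17 libraries. Erythroid markers summed to 1254 CPM in Naive replicate 1, 186 CPM in Naive replicate 2 and at most 13.1 CPM elsewhere, with 4 of the 12 at 0 in every library. In such bulk libraries fewer cells of a type and less RNA per cell cannot be told apart.

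Of the members, 3 lie on chromosome 2, *Itga4* at chr2:79255426-79333123, *Itga6* at chr2:71745616-71858416 and *Itgav* at chr2:83724397-83806916, all on the plus strand (GENCODE vM21, genome build GRCm38 or mm10). *Itgae* lies at chr11:73090583-73147446 and *Itgb3* at chr11:104608000-104670476, *Itgal* at chr7:127296260-127335138, *Itgb1* at chr8:128685654-128733200 and *Itgb2* at chr10:77530252-77565708, all on the plus strand. *Itgb7* at chr15:102215995-102231944 and *Itgb8* at chr12:119158022-119238802 lie on the minus strand. RefSeq windows for the bases just before the gene start (GRCm38.p6) were found for 5 of the 10 members. Those of *Itga4* (chr2:79255176-79255425, plus strand) and *Itgb1* (chr8:128685404-128685653, plus strand) are shown because these genes encode the chains of VLA-4, and the first was called lower in both cultured groups while the second was not. Each is 250 bases long and holds no annotated exon base, and capitals mark the motifs found.
Itga4: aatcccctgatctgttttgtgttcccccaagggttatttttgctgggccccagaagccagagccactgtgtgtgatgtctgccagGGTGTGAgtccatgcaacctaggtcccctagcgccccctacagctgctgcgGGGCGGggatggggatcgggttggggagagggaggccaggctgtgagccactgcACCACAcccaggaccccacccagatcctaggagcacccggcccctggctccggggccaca
Itgb1: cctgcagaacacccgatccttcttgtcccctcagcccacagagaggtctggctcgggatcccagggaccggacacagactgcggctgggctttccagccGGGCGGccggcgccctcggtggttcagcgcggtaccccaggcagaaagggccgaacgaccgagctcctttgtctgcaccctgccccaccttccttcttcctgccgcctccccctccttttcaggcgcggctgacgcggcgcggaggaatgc
The first capitals in the *Itga4* window, reading from 5′ to 3′, are a T-box site, GGTGTGA, which 3.33% of all 32851 RefSeq windows of the same length held on either strand. The second are a GC box, GGGCGG, held by 32.7% of those windows and marked in the *Itgb1* window as well. The last are a Runx site, which is TGTGGT on the minus strand and was held by 14% of the windows. The Ets core GGAAGT, in 19.7% of all windows, and the AP-1 site TGACTCA, in 4.46% of them, were searched in the same way with overlaps allowed and are not in either sequence. A match is a run of letters in the reference and not a measured binding site.

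Among the members, 2 α chains and 2 β chains separated the cell types. The α4 chain gene *Itga4* fell 4.19-fold in Th17 and 7.0-fold in Th1 cells compared with Naive cells, and *Itgb8* fell from a low level in Naive cells to 2 counts over both Th17 libraries and 0 over both Th1 libraries. *Itgae* was 8.96-fold lower and *Itgb3* 4.46-fold higher in Th1 than in Th17 cells. Calls required an adjusted p below 0.01 together with a log2 fold change beyond 1 in either direction. Compared with Naive, Th17 cells had 0 of 10 members called higher and 2 called lower, where 4.01% and 1.43% of all genes tested were called higher and lower. Th1 cells likewise had 0 called higher and 2 called lower, against 4.64% and 2.81% of all genes. In both comparisons, 1 of the 2 called lower was *Itgb8*, which had enough counts to be tested only in Naive libraries. In Th1 compared with Th17 cells, 1 member was called higher and 1 lower, against 2.7% and 2.83% of all genes. The comparisons with Naive share the same 2 Naive libraries.

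**Figure D1:**
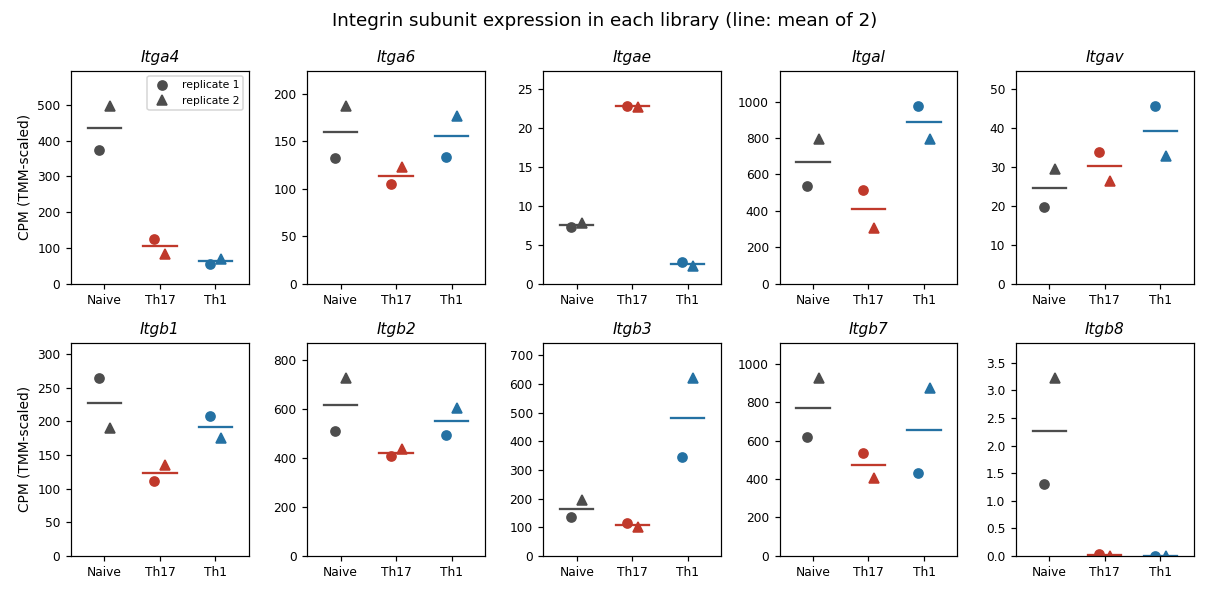
CPM (TMM-scaled, vertical axes from 0) of each of the 10 integrin subunits in the 2 libraries of Naive, Th17 and Th1 cells, with the line at the mean of 2. *Itga4* lies between 375 and 496 CPM in Naive libraries and at or below 125 CPM in the others, and *Itgae* is at 22.8 and 22.7 CPM in Th17 libraries.

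The groups did not overlap for more members than were called. In Th17 compared with Naive cells, both libraries lay above both Naive libraries for 1 member and below them for 8, where 32.4% and 33.1% of all genes did so. For Th1 compared with Naive cells the counts were 3 above and 3 below, against 27.6% and 28.4% of all genes. For Th1 compared with Th17 cells they were 5 above and 2 below, against 31.5% and 35.1% of all genes. The median log2 fold change over the 10 members was -0.65 in Th17 and -0.20 in Th1 cells compared with Naive and 0.42 in Th1 compared with Th17 cells, beside -0.02, -0.02 and -0.03 over all genes tested.

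**Figure D2:**
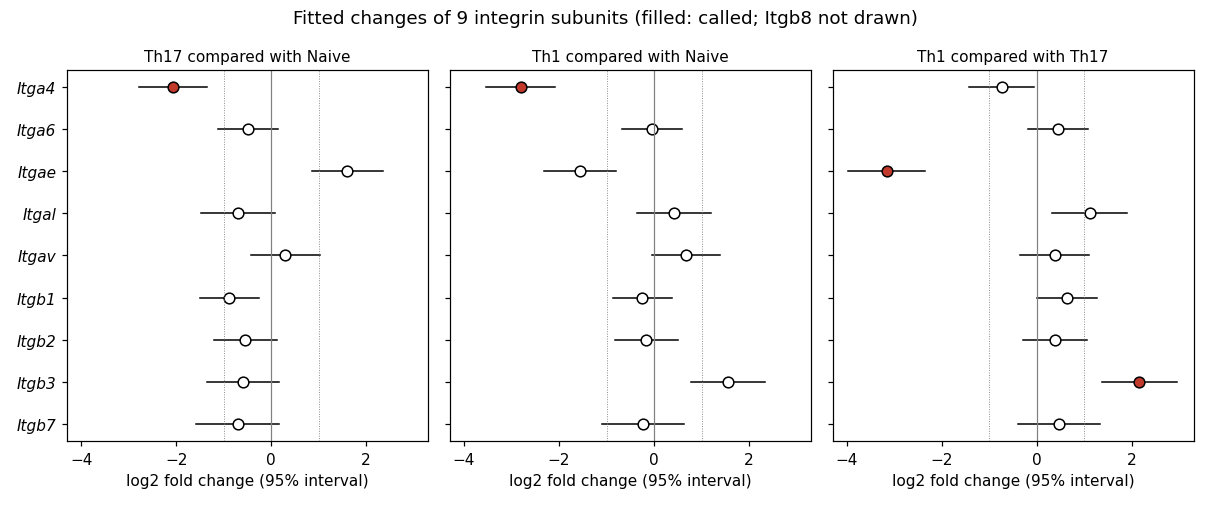
Fitted log2 fold change with its 95% interval (horizontal axes) for 9 integrin subunits in the 3 comparisons, with filled points for called genes and dotted lines at 1 and -1. *Itga4* is filled in both comparisons with Naive, at -2.07 and -2.81, and *Itgae* and *Itgb3* in Th1 compared with Th17, at -3.16 and 2.16.

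*Itga4* encodes the chain shared by VLA-4 and the gut-homing integrin α4β7. It had 375 and 496 CPM in Naive, 125 and 82.4 CPM in Th17 and 54.5 and 69.9 CPM in Th1 libraries. Both Naive libraries were above all others, and both Th1 libraries were below both Th17 libraries. The log2 fold change was -2.07 (SE 0.32) in Th17 compared with Naive cells (edgeR quasi-likelihood test, Benjamini-Hochberg adjusted p = 0.0027). It was -2.81 (SE 0.33) in Th1 compared with Naive cells (edgeR adjusted p = 0.00051). The difference of Th1 from Th17 cells was -0.74 (95% interval -1.43 to -0.05) and did not pass (edgeR adjusted p = 0.12). The call in Th17 cells was lost without Th17 replicate 1 (log2 fold change -2.39, adjusted p = 0.011, edgeR) or Th17 replicate 2 (-1.80, adjusted p = 0.029). *Cerkl* lies on the other strand and shares 1124 exon bases with *Itga4*, and it had between 0.954 and 2.47 CPM in all 6 libraries. The 5 regulatory T cell markers, none of them at 0 in any group, did not all move one way. Of these, *Foxp3*, *Ikzf2* and *Gpr83* were highest in both Naive libraries, *Foxp3* with 39.2 and 69.9 CPM in Naive, 19.2 and 12.7 CPM in Th17 and 6.94 and 13.2 CPM in Th1 libraries. *Lrrc32* was highest in Th1 libraries, at 41.9 and 75.5 CPM against 20.0 and 39.0 CPM in Naive libraries, and *Ikzf4* overlapped in all groups. Their sum was between 146 and 259 CPM in Naive, 51.9 and 77.8 CPM in Th17 and 79.0 and 109 CPM in Th1 libraries, and their part in the result was not tested.

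The partner of α4 in the gut-homing integrin, β7, did not pass in any comparison. *Itgb7* had 619 and 923 CPM in Naive, 535 and 408 CPM in Th17 and 431 and 875 CPM in Th1 libraries. The Th1 libraries overlapped both other groups, and both Th17 libraries were below both Naive libraries. Its log2 fold change was -0.71 (95% interval -1.58 to 0.15) in Th17 and -0.24 (-1.10 to 0.62) in Th1 cells compared with Naive, and 0.47 (-0.39 to 1.33) in Th1 compared with Th17 cells.

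The other α chain of β7 is CD103, encoded by *Itgae*, which marks lymphocytes held in epithelia and some regulatory T cells. *Itgae* had 7.28 and 7.72 CPM in Naive, 22.8 and 22.7 CPM in Th17 and 2.82 and 2.21 CPM in Th1 libraries. The 3 groups did not overlap, with Th17 highest and Th1 lowest. In Th1 compared with Th17 cells the log2 fold change was -3.16 (SE 0.36, edgeR adjusted p = 0.00064). Compared with Naive cells it was 1.60 (95% interval 0.85 to 2.35) in Th17 cells and missed the threshold (edgeR adjusted p = 0.012). In Th1 cells it was -1.56 (95% interval -2.33 to -0.79) and missed it too (edgeR adjusted p = 0.013). Both differences from Naive passed with DESeq2 (adjusted p = 1e-05 in Th17 and 8.4e-05 in Th1 cells) and in edgeR without the filter on low counts, and the one in Th17 cells also without Th1 replicate 1 (adjusted p = 0.0068) or Th1 replicate 2 (adjusted p = 0.0093). *Gsg2*, the kinase gene known as Haspin, lies inside *Itgae* on the other strand with 0 shared exon bases and had 48.6 CPM in Th1 replicate 1 and between 10.4 and 20.5 CPM in the other libraries. The sum of 17 macrophage and dendritic cell markers was also highest in Th17 libraries, at 252 and 828 CPM. Most of this was a single gene, *Lyz2*, at 222.5 and 762 CPM there and at most 25.8 CPM elsewhere. The sum was 22.3 to 53.2 CPM in Naive libraries and 22.0 to 23.0 CPM in Th1 libraries. Of the 17, 1, 1 and 2 were at 0 in Naive, Th17 and Th1 libraries. These markers did not all move one way. Of 15 tested, 5 were called higher and 0 lower in Th17 compared with Naive cells, while *Flt3* was highest in Naive and *Xcr1* in Th1 libraries. Of the 17, 1 and 3 were above 10 CPM in the Th17 libraries, and the part of these markers in the result was not tested. The CD8 T cell genes *Cd8a* and *Cd8b1* summed to between 5.66 and 11.3 CPM in all libraries.

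The genes of LFA-1, *Itgb2* and *Itgal*, came next after *Itgb7* by mean CPM per kilobase of the principal transcript in each cell type. In Th1 cells the libraries of these genes overlapped. In Th1 replicate 1, *Itgal* (188 CPM per kilobase) and *Itgb2* (167) were above *Itgb7* (161). *Itgal* had 537 and 794 CPM in Naive, 512 and 307 CPM in Th17 and 974.5 and 797 CPM in Th1 libraries. Both Th1 libraries were above all others, in 1 case by a narrow margin, and both Th17 libraries were below. Its log2 fold change was 1.11 (95% interval 0.33 to 1.90) in Th1 compared with Th17 cells and did not pass (edgeR adjusted p = 0.056), but did without the filter on low counts (edgeR adjusted p = 0.0098). It was -0.70 (-1.48 to 0.08) in Th17 and 0.41 (-0.36 to 1.19) in Th1 cells compared with Naive. The β2 chain gene *Itgb2* had 509 and 726 CPM in Naive, 409 and 436 CPM in Th17 and 495 and 607 CPM in Th1 libraries. Th17 was lowest again, and no comparison passed, with log2 fold changes of -0.55 (-1.22 to 0.12) in Th17 and -0.16 (-0.83 to 0.50) in Th1 cells compared with Naive and 0.38 (-0.28 to 1.05) in Th1 compared with Th17 cells.

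The β1 chain, the common partner of α4, α6 and αv, did not pass in any comparison. *Itgb1* had 264 and 191 CPM in Naive, 111 and 136 CPM in Th17 and 208 and 175 CPM in Th1 libraries. Both Th17 libraries were the lowest, and Naive and Th1 libraries overlapped. The log2 fold change of -0.88 (95% interval -1.51 to -0.25) in Th17 compared with Naive cells had an edgeR adjusted p of 0.060. It was -0.25 (-0.87 to 0.38) in Th1 compared with Naive and 0.64 (0.01 to 1.26) in Th1 compared with Th17 cells. *Itga6*, whose protein with β1 binds laminins, had 132 and 187 CPM in Naive, 105 and 122 CPM in Th17 and 134 and 176 CPM in Th1 libraries. The Th1 values lay within the Naive range. Its log2 fold changes were -0.49 (-1.13 to 0.15), -0.04 (-0.68 to 0.60) and 0.45 (-0.19 to 1.09) in Th17 and Th1 compared with Naive and in Th1 compared with Th17 cells.

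Of the αv group, *Itgb3* was the subunit that separated Th1 from Th17 cells. The β3 chain, CD61, pairs with αv on many cells and with αIIb, the product of *Itga2b*, on platelets. *Itgb3* had 134 and 193 CPM in Naive, 115 and 101 CPM in Th17 and 345 and 620 CPM in Th1 libraries. Both Th1 libraries were above all others, and replicate 2 was the higher of them. In Th1 compared with Th17 cells the log2 fold change was 2.16 (SE 0.35, edgeR adjusted p = 0.0039). The call was lost without Th17 replicate 1 (log2 fold change 2.24, edgeR adjusted p = 0.030), Th17 replicate 2 (2.08, 0.035) or Th1 replicate 2 (1.69, 0.019). Compared with Naive cells it was 1.56 (95% interval 0.79 to 2.33) in Th1 cells and missed the threshold (edgeR adjusted p = 0.014), though it passed with DESeq2 (adjusted p = 0.00041), in edgeR without the filter (adjusted p = 3.3e-05) and without Th1 replicate 1 (1.96, adjusted p = 0.0082). In Th17 compared with Naive cells it was -0.60 (-1.36 to 0.16).

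**Figure D3:**
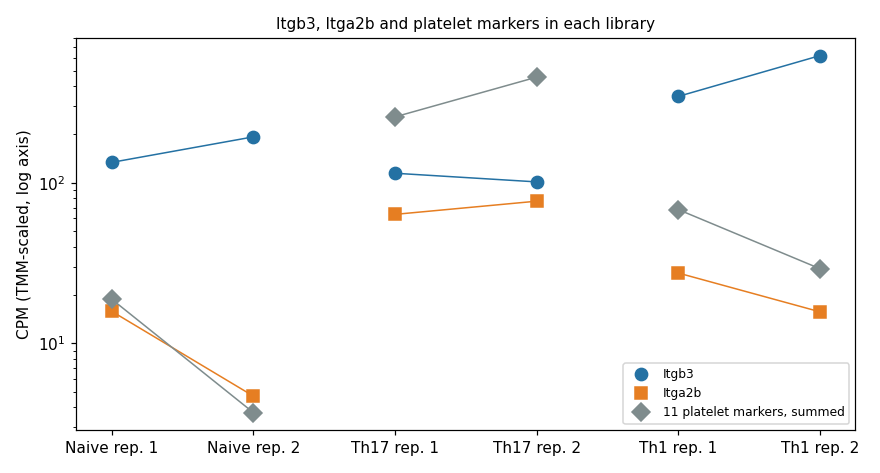
CPM (TMM-scaled, log axis) of *Itgb3*, of *Itga2b* and of 11 summed megakaryocyte and platelet markers in each of the 6 libraries. The summed markers are at 257 and 455 CPM in the Th17 libraries, and *Itgb3* is at 345 and 620 CPM in the Th1 libraries.

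Megakaryocyte and platelet markers, 11 in all, summed to 18.9 and 3.71 CPM in Naive, 257 and 455 CPM in Th17 and 68.1 and 29.2 CPM in Th1 libraries, and 1 of the 11 was at 0 in Naive and 0 were at 0 in the other groups. *Itga2b* had 15.9 and 4.70 CPM, 63.6 and 76.9 CPM and 27.4 and 15.7 CPM in the same order. The sum of 12 mast cell and basophil markers was also highest in Th17 libraries, at 242 and 485 CPM. It was 55.7 to 178 CPM in Naive libraries and 71.2 to 90.3 CPM in Th1 libraries. These markers did not all move one way. Of 11 tested, 4 were called higher and 0 lower in Th17 compared with Naive cells. *Kit* was highest in Naive libraries, at 99.8 and 29.6 CPM against 12.8 and 11.4 CPM in Th17 libraries. The part of either marker list in the values of *Itgb3* was not tested.

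*Itgav* itself was low and did not pass. It had 19.6 and 29.6 CPM in Naive, 33.9 and 26.4 CPM in Th17 and 45.6 and 32.7 CPM in Th1 libraries. Th1 lay above Naive libraries, while Th17 overlapped both. The log2 fold change was 0.30 (95% interval -0.42 to 1.02) in Th17 and 0.68 (-0.05 to 1.40) in Th1 cells compared with Naive, and 0.38 (-0.34 to 1.10) in Th1 compared with Th17 cells. The gene model *Gm13684* on the other strand shares 634 exon bases with *Itgav* and is not among the counted genes.

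*Itgb8*, whose product with αv activates TGF-β, was near the limit of detection outside Naive cells. It had 89 and 65 counts (1.31 and 3.22 CPM) in Naive, 2 and 0 counts in Th17 and 0 counts in both Th1 libraries. Naive libraries were above all others, although replicate 1 is the deeper library and held the lower CPM. Over both libraries, Naive CPM was 72.4-fold that of Th17 cells, with a 95% counting interval of 19.7 to 603. Compared with Th1 cells it was at least 46.8-fold higher, taking 3 counts over the 2 Th1 libraries as the limit that a count of 0 allows. These sizes rested on single libraries. Without Naive replicate 1 the fold over Th17 cells was 134 (35.5 to 1127) and the limit over Th1 cells 86.3. Without Th17 replicate 1, which held both Th17 counts, only a limit of at least 10.3-fold was left for Th17 cells, and without Th1 replicate 1 that for Th1 cells was at least 9.19-fold. Leaving out any other library moved either by less than 1.5 times. Both differences were called (edgeR adjusted p = 0.0051 and 0.0028). *Itgb8* had enough counts to be tested through the Naive libraries alone, so that only a call of lower was open to it. These p-values are therefore no support beyond the counts themselves. The call in Th17 cells was lost without Naive replicate 2 (adjusted p = 0.019), Th17 replicate 1 (0.048) or Th17 replicate 2 (0.032, edgeR) and after thinning to the smallest library (0.018). That in Th1 cells was lost without Th1 replicate 1 (edgeR adjusted p = 0.026). Between Th1 and Th17 cells no difference was detectable at this depth.

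Ratios of chains that share or compete for a partner were formed within each library from counts per kilobase, and with 2 libraries against 2 they were not tested, since the smallest exact two-sided permutation p is 0.333. The log2 ratio of *Itgae* to *Itga4*, the 2 partners of β7, was -4.34 and -4.66 in Naive libraries, -1.11 and -0.51 in Th17 libraries and -2.93 and -3.64 in Th1 libraries. No groups overlapped, and *Itga4* remained the more abundant of the 2 in every library. The mean was higher by 3.69 in Th17 than in Naive cells and by 1.22 in Th1 than in Naive cells, although *Itgae* itself was lower in Th1 than in Naive libraries.

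**Figure D4:**
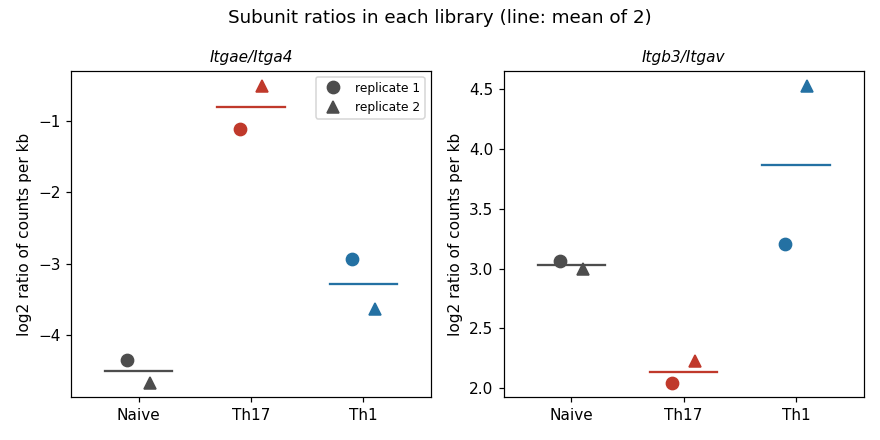
Log2 ratios of counts per kilobase (vertical axes) of *Itgae* to *Itga4* and of *Itgb3* to *Itgav* in the 2 libraries of each cell type, with the line at the mean. The first is highest in Th17 libraries, at -1.11 and -0.51, and the second in Th1 libraries, at 3.21 and 4.53.

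The log2 ratio of *Itgb3* to *Itgav* was 3.06 and 3.0 in Naive libraries, 2.05 and 2.23 in Th17 libraries and 3.21 and 4.53 in Th1 libraries. Th17 libraries were lowest, and Th1 libraries were above Naive libraries, 1 of them only slightly. Per kilobase, *Itgb3* also passed *Itgb1* in Th1 cells alone among these libraries. The log2 ratios of *Itgb3* to *Itgb1* were 0.13 and 1.22 in Th1, -1.58 and -0.58 in Naive and -0.55 and -1.02 in Th17 libraries. Without division by length, *Itgb3* was also slightly ahead in Naive replicate 2 (0.02) and Th17 replicate 1 (0.05). The log2 ratio of *Itgal* to *Itgb2* was -0.73 and -0.68 in Naive libraries, -0.48 and -1.31 in Th17 libraries and 0.17 and -0.41 in Th1 libraries. That of *Itgb7* to *Itgb1* overlapped in all 3 groups, with 1.74 and 2.78 in Naive libraries, 2.78 and 2.09 in Th17 libraries and 1.56 and 2.83 in Th1 libraries.

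As a share of all α chain counts per kilobase, *Itgal* made up 53.0% and 57.5% in Naive libraries, 49.9% and 35.7% in Th17 libraries and 73.5% and 61.6% in Th1 libraries. *Itga4* made up 19.6% and 19.1% in Naive libraries, 6.49% and 5.09% in Th17 libraries and 2.19% and 2.87% in Th1 libraries. Thus *Itgal* took the largest share in each library, and *Itga4* separated the 3 groups. The 5 α members together held 90.7% and 95.3% in Naive libraries, 74.1% and 63.8% in Th17 libraries and 90.7% and 83.0% in Th1 libraries. Among other chains, *Itga2b* and *Itgam* held 9.36% and 5.90% in Th17 replicate 1 and 13.5% and 9.11% in Th17 replicate 2, in the libraries with the highest platelet and neutrophil marker sums. *Itga7*, a laminin receptor chain, held 12.3% in Th1 replicate 2 and 3.74% in Th1 replicate 1.

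**Figure D5:**
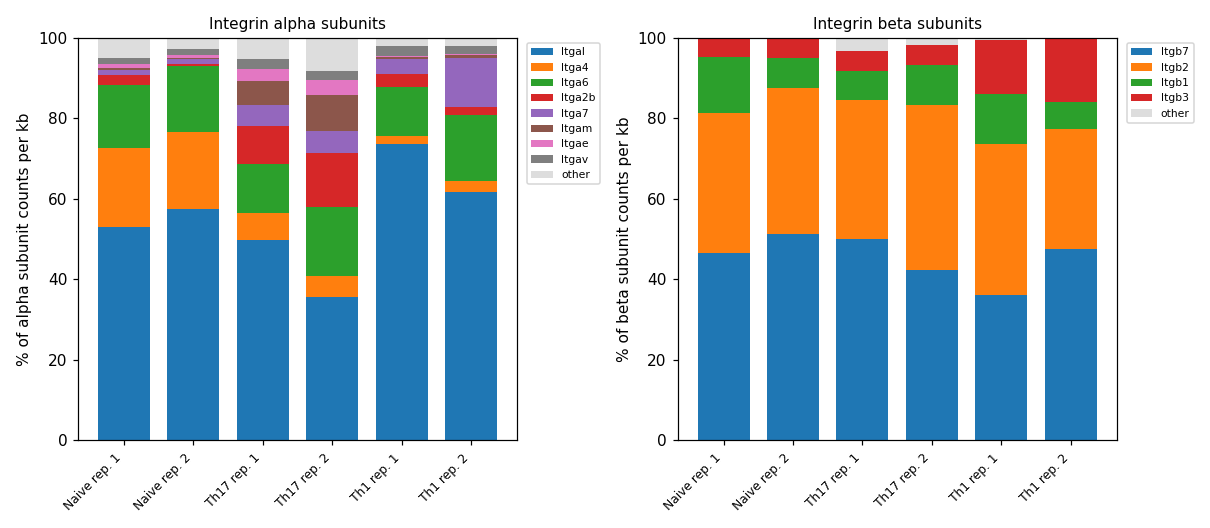
Share (%) of α chain counts per kilobase (left) and β chain counts per kilobase (right) held by each gene in each of the 6 libraries, with smaller genes grouped as other. *Itga4* shrinks from 19.6% and 19.1% in Naive to 2.19% and 2.87% in Th1 libraries, and *Itgb3* holds 13.4% and 15.6% in Th1 libraries.

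Among β chains, the 5 members held between 96.8% and 99.95% of counts per kilobase in every library. *Itgb3* held 4.68% and 4.97% in Naive libraries, 4.98% and 4.89% in Th17 libraries and 13.4% and 15.6% in Th1 libraries. *Itgb7* held the largest share in 5 of the 6 libraries, at between 42.4% and 51.2%, and in Th1 replicate 1 it held 36.1% beside 37.5% for *Itgb2*. No test was made of these shares.

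By mean CPM per kilobase, the order in Naive cells was *Itgb7* (287 ± 80.2, SD, n = 2), *Itgb2* (208 ± 51.6), *Itgal* (128 ± 34.9), *Itgb1* (59.6 ± 13.6), *Itga4* (44.6 ± 8.78), *Itga6* (37.0 ± 8.97), *Itgb3* (28.3 ± 7.24), *Itgav* (3.49 ± 0.996), *Itgae* (1.95 ± 0.0818) and *Itgb8* (0.269 ± 0.161). Libraries of the neighbours *Itgb7* and *Itgb2* overlapped, as did each neighbouring pair from *Itgb1* to *Itgb3*. In Th17 cells *Itga4* was at 10.6 ± 3.11 CPM per kilobase, below *Itga6* at 26.3 ± 2.92 and *Itgb3* at 18.7 ± 1.64, and *Itgae* at 5.92 ± 0.0104 stood above *Itgav* at 4.27 ± 0.756. In Th1 cells *Itgb3* stood above *Itgb1*, at 83.4 ± 33.5 CPM per kilobase against 50.2 ± 5.98, and *Itga4* at 6.37 ± 1.11 overlapped *Itgav* at 5.55 ± 1.30.

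*Itgb8*, *Itgae* and *Itga4* had the widest range of mean log2 CPM over the 3 cell types, and for each the 3 genes at the smallest Euclidean distance in centred log2 CPM over the 6 libraries were found among the other genes tested. For *Itga4* these were *Tacc2* (distance 0.55), *Rnf144a* (0.59) and *Foxp3* (0.64). For *Itgae* they were *Cdh15* (0.41), *Tle2* (0.52) and *B3galt5* (0.57), all 3 under 6 CPM in every library. For *Itgb8* they were *Chdh* (1.15), *Wnt10a* (1.25) and *Cecr6* (1.29). With Pearson's r in place of distance, over the same 6 libraries, none of the 9 genes recurred, and the nearest were *Lrrc1*, *Tmx4* and *Itgad*, each with r of 0.997 or 0.998.

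The wider set of adhesion genes held 90 listed genes, of which 82 were tested. In Th17 compared with Naive cells 9 were called higher and 4 lower, in Th1 compared with Naive cells 6 and 7, and in Th1 compared with Th17 cells 2 and 3. That is 15.9%, 15.9% and 6.1% of those tested, where 5.43%, 7.45% and 5.53% of all genes were called. The counts moved by over 1.5 times with the tool, the filter and the libraries used.

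Of the 13 calls in Th17 compared with Naive cells, 6 were of integrin subunits outside the 10 members, of which 15 of 17 were tested. Among these, 5 rose and 1 fell. *Itgam*, the αM chain of myeloid cells, had 54.2 and 70.1 CPM in Th17 and between 4.06 and 9.61 CPM in the other libraries, with a log2 fold change of 3.83 (SE 0.39) compared with Naive and -3.09 (SE 0.38) in Th1 compared with Th17 cells. *Itgb2l*, a gene close in sequence to *Itgb2*, had 14.1 and 9.16 CPM in Th17 and at most 0.126 CPM in the other libraries, and was called in the same comparisons. *Itgb5*, a partner of αv, rose in Th17 (4.20, SE 0.54) and in Th1 cells (3.16, SE 0.52). *Itga2b* (2.75) and *Itga3* (2.34) rose and *Itga9* fell (-3.97) in Th17 compared with Naive cells. Like *Itgam*, *Itgb2l* and *Itga2b*, the neutrophil and platelet marker sums above were highest in both Th17 libraries. Outside Th17 libraries, the neutrophil sum was higher in Naive, while *Itgam* was higher in Th1 (5.18 and 9.61 CPM against 4.06 and 4.70). The part of these markers in these results was not tested.

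In Th1 compared with Naive cells, *Itga7* (2.79, SE 0.49) and the collagen receptor chain *Itga2* (2.40, SE 0.41) rose with *Itgb5*, and the fibronectin receptor chain *Itga5* fell (-2.27, SE 0.45). *Itgad* fell from 46 and 19 counts in Naive to 0 in both Th1 libraries. Its Th17 libraries were as low, at 2 and 0 counts, though that difference was not called. Like *Itgb8*, it had enough counts to be tested only in Naive libraries. *Itga7* had 38.3 and 123 CPM in the Th1 libraries, 42.6 and 35.3 CPM in Th17 and 10.8 and 12.4 CPM in Naive libraries.

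Of the proteins that switch integrins on from inside the cell, 13 of 15 genes were tested and 1 was called. *Rasgrp2*, the exchange factor that activates Rap1 in T cells and platelets, had 271 and 424 CPM in Naive, 76.1 and 66.4 CPM in Th17 and 58.5 and 110 CPM in Th1 libraries. Both cultured groups were below Naive, with log2 fold changes of -2.29 (SE 0.37, edgeR adjusted p = 0.0034) in Th17 and -2.05 (SE 0.36, edgeR adjusted p = 0.0046) in Th1 cells. Of 9 genes whose products restrain integrins, *Sipa1*, which inactivates Rap1, fell in Th17 compared with Naive cells (-2.09, SE 0.38, edgeR adjusted p = 0.0061) and no other was called.

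Of 15 adhesion site genes, 2 were called. *Tns1*, encoding the actin linker tensin-1, had 37.9 and 26.6 CPM in Naive, 9.84 and 6.50 CPM in Th17 and 112 and 134 CPM in Th1 libraries. It fell in Th17 (-1.97, SE 0.32) and rose in Th1 cells (1.92, SE 0.31) compared with Naive, and differed by 3.90 (SE 0.34) between Th1 and Th17 cells. *Tns3*, of the same family, fell in Th1 compared with Naive cells (-4.44, SE 0.65).

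Integrin ligands numbered 19, of which 16 were tested. *Lama5*, a laminin chain bound by α6β1, had 0.998 and 1.34 CPM in Naive, 39.2 and 20.5 CPM in Th17 and 444 and 315 CPM in Th1 libraries. It was called higher in both cultured groups compared with Naive (4.72, SE 0.42 in Th17 and 8.38, SE 0.49 in Th1 cells) and in Th1 compared with Th17 cells (3.66, SE 0.38). *Icam1*, the main ligand of LFA-1, had 33.8 and 39.1 CPM in Naive, 98.4 and 78.2 CPM in Th17 and 178 and 247 CPM in Th1 libraries, and was called higher in Th1 than in Naive cells (2.54, SE 0.29). Osteopontin (*Spp1*), a ligand of αvβ3 and α4β1, rose in Th17 cells (7.10, SE 1.02) from 24 and 1 counts in Naive to 798 and 1008 counts, with the deeper of the 2 libraries the lower in CPM. *F11r*, encoding JAM-A, rose in Th17 cells too (3.96, SE 0.70). Fibronectin (*Fn1*) fell in Th1 cells compared with Naive (-5.15, SE 0.78) and Th17 cells (-5.17, SE 0.78), and *Icam4* fell in Th1 compared with Naive cells (-4.07, SE 0.84), from 7.32 and 1.58 CPM in Naive libraries. Macrophage and erythroid marker sums differed between these libraries as given above, and their part was not tested. Of 15 other adhesion receptors, 14 of them tested, *Mcam* rose in Th17 (3.26, SE 0.64) and *Crtam* fell in Th1 cells (-2.94, SE 0.51) compared with Naive.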

How the data were processed

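RNA-Seq was analysed for 3 cell types, Naive, Th17 and Th1, with 2 libraries for each, grouped by their titles in the labels. The authors mapped paired reads to mm10 with Hisat2 2.2.1 and counted reads per gene with HTSeq 0.13.5, and the deposited values are whole-number counts, not normalized. The annotation release is not given in the sources used here. By the methods, duplicates were discarded and HTSeq settings were default, while the supplementary code shows no such discarding and a reverse-strand setting. The labels describe a preparation that does not mark strand, so that reads of genes overlapping on opposite strands cannot be told apart.

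The analysis used edgeR 4.0.16 under R 4.3.3. Genes kept by filterByExpr (13607 of 24223) were scaled by TMM and fitted with the quasi-likelihood model, with cell type as the only term over all 6 libraries. Calls needed a Benjamini-Hochberg adjusted p below 0.01 with a log2 fold change beyond 1 in either direction, as in the study. CPM are TMM-scaled, with a prior count of 2 on the log2 scale. SE was taken from the log2 fold change and its F statistic. The fit was also run on simulated counts drawn from the same kind of model with known changes. That run checks the code and not how well the model suits these data. Levels per kilobase used the length of the principal transcript in GENCODE vM21, and union exon length was tried after the data were seen. Totals ranged from 17742158 to 69080017 counts, and counting intervals and limits cover counting error only.

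Alternatives were DESeq2 1.42.0, RLE size factors, library size alone, other filters, the replicate number as a block, only the 4 libraries compared, thinning, an adjusted p under 0.05 and leaving out each library. The members, the lists and the rule for named genes (all members, every other subunit called, and at most 3 called genes per list and comparison) were chosen with earlier results of these data known. The Pearson list names were limited to the nearest gene of each member. ATAC-Seq and Hi-C data were not analysed here.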

Additional observations from a re-analysis of the deposited data

Results flagged for a closer look

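For 2 subunits the change from Naive differed between Th17 and Th1 cells by the direct test of Th1 against Th17 libraries in edgeR. *Itgae* was at 22.8 and 22.7 CPM in Th17 and 2.82 and 2.21 CPM in Th1 libraries, with Naive libraries between them, and its log2 fold change was -3.16. *Itgb3* was at 345 and 620 CPM in Th1 and 115 and 101 CPM in Th17 libraries, with Naive libraries between them, and its log2 fold change was 2.16. The first call held when any 1 library was left out, and the second was lost without either Th17 library (adjusted p = 0.030 and 0.035) or without Th1 replicate 2 (adjusted p = 0.019).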

How the results depend on the processing

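Depth and 2 libraries a group limit these results, and leaving out a library leaves a lone sample that is assumed to vary like the others. Of the members, 2 were called in each comparison. For Th17 compared with Naive, at least 10 counts in every library and thinning each gave 1, and leaving out a library gave 0 to 3. For Th1 compared with Naive, DESeq2, no filter on low counts, DESeq2 with the replicate block and an adjusted p under 0.05 each gave 4. At least 10 counts in every library gave 1. When a library was left out, the log2 fold change was -3.00 to -2.59 for *Itga4* and 1.08 to 1.96 for *Itgb3*. The genes called were not the same without Th1 replicate 1, where *Itgb8* lost its call and *Itgb3* was called. For Th1 compared with Th17, leaving out a library gave 1 to 2. *Itgb8* could not be fitted with at least 10 counts in every library, since it then has too few counts.

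Of the adhesion genes, 13, 13 and 5 were called in Th17 and Th1 compared with Naive and in Th1 compared with Th17. DESeq2 gave 22 in the first and 23 in the third, no filter 28, 22 and 26, an adjusted p under 0.05 26 in the first and 25 in the third, at least 10 counts 3 in the third, and only the 4 libraries compared 11 in the third. Leaving out a library gave 5 to 15, 7 to 12 and 5 to 13.

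The labels do not say whether libraries with the same replicate number share a batch, and the main fit treated the number as a name. Replicate 1 was the deeper library in every group. Deviations of libraries with the same number correlated at -0.23, 0.17 and 0.08 over 13607 genes in the 3 comparisons, which does not settle the question. With the replicate block in edgeR, *Itgb3* in Th1 compared with Naive cells was also called (log2 fold change 1.54, adjusted p = 0.0058), and 12 adhesion genes were called in Th1 compared with Th17. With the replicate block in DESeq2, 21 adhesion genes were called in Th17 compared with Naive and 21 in Th1 compared with Th17. Over all genes the block in edgeR called 706 higher and 329 lower, 839 and 563, and 492 and 549. Without the block these were 545 and 194, 631 and 383, and 367 and 385.

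Scaling by library size alone moved the median of all genes by -0.25 in Th1 compared with Naive and -0.21 in Th1 compared with Th17, where calls went from 367 higher and 385 lower to 203 and 352, and left the members called at 2 in each. Signs turned only in values that were not called. In Th1 compared with Naive cells these were *Itgb1* at 0.0024 without Naive replicate 1, *Itga6* at 0.23, *Itgb2* at 0.11 and *Itgb7* at 0.08 without Naive replicate 2, and *Itga6* at 0.19, *Itgb2* at 0.01 and *Itgb7* at 0.22 without Th1 replicate 1. In Th1 compared with Th17 cells *Itgb7* was at -0.12 without Th1 replicate 2. Over all 6 such settings, the range in Th1 compared with Naive cells was -0.27 to 0.23 for *Itga6*, -0.46 to 0.0024 for *Itgb1*, -0.40 to 0.11 for *Itgb2* and -0.83 to 0.22 for *Itgb7*, and in Th1 compared with Th17 cells -0.12 to 0.89 for *Itgb7*. Division by length shifts a log2 ratio equally in every library and cannot change a difference between groups. The fold of *Itgb8* without each library was computed after the data were seen.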
